A study of Homo sapiens with 29 samples.

Results

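Melanoma cells released from a BRAF inhibitor for a second time were compared with the same cells after their first release. The drug, LGX818 or encorafenib, blocks the BRAF kinase. The line is WM239A, an established human metastatic melanoma line, made to overexpress BRAF-V600E, the mutant kinase that holds the MAPK pathway on in many melanomas. Whether the line is 1 clone or a pool is not given in the sources used here. Both groups carry this construct and both were sampled after 7 days in DMSO, the vehicle, here called a drug holiday. The second-holiday cells (week 4, day 28) had been through 7 days of 500 nM LGX818, 7 days of DMSO, 7 days of LGX818 and 7 days of DMSO. The first-holiday cells (week 2, day 14) had been through 7 days of 500 nM LGX818 and 7 days of DMSO. These are 6 libraries, 3 in each group, of 29 in the series, chosen by their schedule labels and not by any measured value. Time in culture, the number of holidays and the days spent on drug all differ between the groups and cannot be told apart. Other libraries of the same cells serve for comparison where named: on drug at weeks 3 and 1 of the intermittent schedule (3 libraries each), and under continuous LGX818 at week 4 (2 libraries) and week 2 (3 libraries). The 29 libraries also include cells after 20 hours of drug, cells at week 3 of continuous drug, untreated cells and vector cells.

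As background, BRAF signals through MEK to ERK, and ERK switches on both growth genes and its own feedback inhibitors. Blocking BRAF in melanoma cells lowers this output within hours and arrests division, and cells that survive often shift along an axis between a pigmented state run by the transcription factor MITF and a less differentiated one. When the inhibitor is withdrawn from cells that have raised their BRAF dose, ERK activity returns, and an excess of it can itself slow growth. The title of the study concerns intermittent treatment and the response to rechallenge. The comparison here addresses what differs between a first and a second period off drug.

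Total counts were 28943699 to 32613438 in the second-holiday libraries and 26060113 to 31372653 in the first-holiday libraries, within 22934039 to 35804978 over the series. Mitochondrially encoded genes held 11.8% to 13.6% of counts in the second holiday and 12.3% to 13.4% in the first (exact two-sided permutation test, p = 1; the smallest p that 3 libraries against 3 allow is 0.1). Replicate 3 of the first holiday lay farther from its group mates (chi-square of the counts per gene 19.9 and 21.2, where sampling noise alone gives about 1) than they did from each other (5.07). Pairs of second-holiday libraries gave 6.34 to 12.9. Whether the 3 libraries of each group stem from different cultures is not in the labels, so the spread between libraries of a group may be technical. The p-values rest on this spread as estimated over all 29 libraries in 10 groups, and not over these 6 alone.

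Of 20494 genes tested, 2992 were higher and 2952 lower in the second holiday at an adjusted p under 0.05 (edgeR quasi-likelihood test, Benjamini-Hochberg adjustment, here and for all adjusted p below). These are 14.6% and 14.4% of the genes tested, 29% in all, and the median log2 change over all genes was 0.02. Changes of at least 2-fold were fewer, with 619 genes higher (3.02%) and 806 lower (3.93%). For 5669 genes (27.7%) the call came with libraries that did not overlap between the groups. This holds for most of the 29% called, so separate groups add little to a call.

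**Figure D1:**
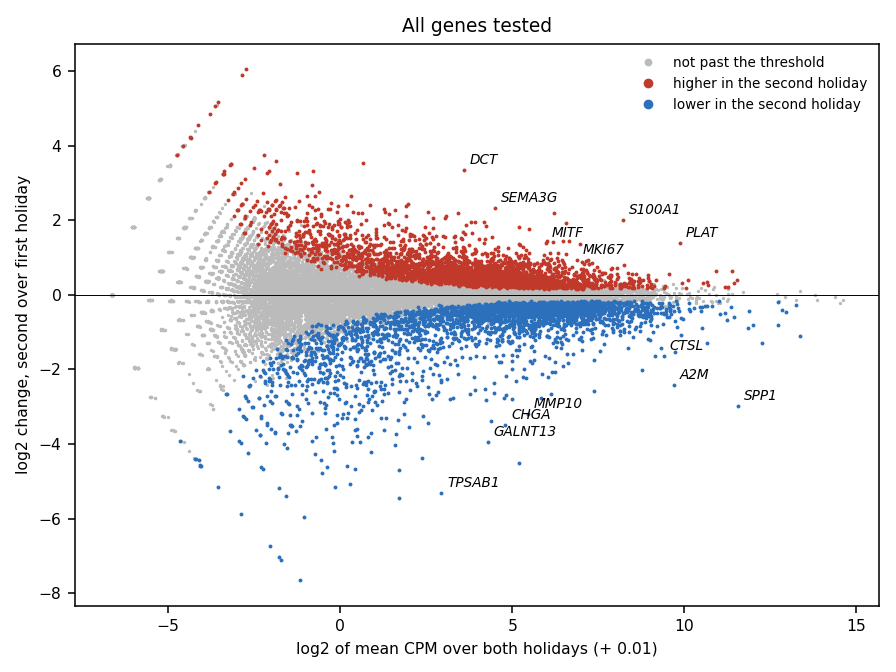
Each point is 1 of the 20494 genes tested. The horizontal axis gives the log2 of the mean CPM, which are counts scaled to library size, over both holidays and the vertical axis the log2 change, second over first holiday; red points are the 2992 genes higher and blue points the 2952 genes lower in the second holiday, grey points did not pass. Labelled genes include DCT at 3.36, TPSAB1 at -5.32 and SPP1 at -2.98.

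BRAF itself and the ERK feedback genes DUSP6 and SPRY4 showed no called difference between the second and the first holiday, while cyclin D1 fell. Other feedback genes moved by less than 2-fold, DUSP4 and SPRY1 upward and DUSP5 and SPRED2 downward. BRAF (ENSG00000157764, chromosome 7, 140719327 to 140924928 on GRCh38) stood at 3381, 3496 and 3333 CPM in the second holiday, against 3236, 3169.9 and 3289 CPM in the first. All 6 libraries lay near the same level, with the second-holiday libraries slightly above (log2 0.07 ± 0.08 SE, adjusted p = 0.513). Reads of the construct and of the endogenous gene cannot be told apart in a gene count. DUSP6, an ERK phosphatase induced by ERK, had 603, 629 and 606 CPM in the second holiday, against 639, 659.8 and 675 CPM in the first (log2 -0.1, adjusted p = 0.239). The feedback inhibitor SPRY4 had 1012, 889 and 934 CPM in the second holiday, against 824, 884 and 1034 CPM in the first, with overlapping groups (log2 0.05, adjusted p = 0.725). The phosphatase gene DUSP4 was higher by 0.24 (adjusted p = 0.00838) and SPRY1 by 0.37 (adjusted p = 0.0253) on the log2 scale, and DUSP5 gave -0.46 (adjusted p = 0.000168) and SPRED2 -0.46 (adjusted p = 8.61e-05). The ETS factor ETV4 came to -0.15 (adjusted p = 0.195) on the log2 scale, the AP-1 subunit FOSL1 to 0.13 (adjusted p = 0.269) and the immediate early factor EGR1 to -0.04 (adjusted p = 0.836). Of 29 ERK output genes, 8 were higher (27.6%) and 6 lower (20.7%), beside 14.6% and 14.4% of all genes, with a median log2 change of -0.01 against 0.02 for all genes. Without replicate 1 of the first holiday 3 were higher, and with the 2 groups fitted alone 5. Among those lost in that library's absence were DUSP4 (adjusted p = 0.0564) and SPRY1 (adjusted p = 0.0659), and the SPRY1 call was also lost without replicate 1 or 2 of the second holiday (adjusted p of 0.139 and 0.0859). Cyclin D1 (CCND1), the partner of CDK4 and CDK6, fell to 1250.0, 1139 and 1261 CPM in the second holiday, against 1556, 1612 and 1729.8 CPM in the first (log2 -0.42 ± 0.06 SE, adjusted p = 1.58e-06). The cytokine gene LIF fell as well, by 0.59 on the log2 scale (adjusted p = 5.22e-08). The receptor gene EPHA2 was 1.68-fold higher, at 117 ± 8.88 CPM in the second holiday and 69.8 ± 3.08 CPM in the first (SD, n = 3 each). MYC, the growth transcription factor, had 58, 59.9 and 55.5 CPM in the second holiday, against 43.8, 43.8 and 44.2 CPM in the first (log2 0.4 ± 0.07 SE, adjusted p = 2.88e-05).

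Among 19 RAS, RAF, MEK and ERK kinases and their partners, 1 was higher (5.26%) and 2 lower (10.5%), below the 14.6% and 14.4% of all genes, so that the list's count is no result about it. When 1 library was left out, the members higher were 0 without replicate 1 of the first holiday and 2 without its replicate 3, and the members lower 1 without that replicate 3 or without replicate 1 or 2 of the second. MAP2K1, which encodes MEK1, fell to 52.2, 53.7 and 52.9 CPM in the second holiday, against 76.7, 80.5 and 73.3 CPM in the first (log2 -0.54 ± 0.06 SE, adjusted p = 1.16e-07). CDK6, a partner of cyclin D1, was higher by 0.52 (adjusted p = 0.00659) on the log2 scale, a call lost without replicate 1 of the first holiday (adjusted p = 0.0591). Of 21 immediate early genes, which respond within minutes to growth factors, 3 were higher (14.3%) and 7 lower (33.3%). The share higher is near the 14.6% of all genes, and 14.4% of all genes were lower. EGR2 fell to 44.2, 42 and 41.1 CPM in the second holiday, against 117, 112 and 104 CPM in the first and was 2.63-fold lower (log2 -1.39 ± 0.09 SE, adjusted p = 7.96e-13). NR4A2, a nuclear receptor gene, had 41.5, 41.7 and 43.3 CPM in the second holiday, against 97.8, 106 and 104 CPM in the first (log2 -1.28 ± 0.08 SE, adjusted p = 8.62e-14). Neither gene's groups came near each other. CYR61, a matricellular protein gene that also belongs to the YAP targets, was 1.79-fold higher (log2 0.84 ± 0.07 SE, adjusted p = 2.31e-10).

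Cell cycle genes were higher together in the second holiday. All 27 tested genes of G2 and mitosis rose, with a median log2 change of 0.82, beside 14.6% of all genes. Of 25 genes of the G1/S transition and replication 24 rose (96%), with a median of 0.53. The histone mRNA binding protein gene SLBP was the 1 member that fell (log2 -0.28 ± 0.09 SE, adjusted p = 0.0212), a call lost without replicate 1 or 2 of the first holiday or 1 or 3 of the second (adjusted p of 0.0798 to 0.0939). None of the 27 G2/M genes reached 2-fold, and changes ran from 0.53 to 0.94. In bulk samples a change in the number of cells of a type, such as dividing cells, and a change in RNA per cell cannot be told apart, here and for the other gene groups.

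The proliferation marker MKI67 (ENSG00000148773, chromosome 10, 128096659 to 128126385) had 171, 121 and 169 CPM in the second holiday, against 64.1, 69.6 and 107 CPM in the first. Its groups did not overlap, but the third library of the first holiday lay close to the second of the second holiday (log2 0.94 ± 0.21 SE, adjusted p = 0.000777). KIF20A, a kinesin of cytokinesis, had 50.6, 44.9 and 49.7 CPM in the second holiday, against 25.1, 24.6 and 30.2 CPM in the first (log2 0.86 ± 0.08 SE, adjusted p = 5.14e-10). The spindle assembly gene TPX2 was 1.78-fold higher, at 117 ± 11 CPM in the second holiday and 65.7 ± 6.23 CPM in the first (SD, n = 3 each). FOXM1, a transcription factor of mitotic genes, was 1.74-fold higher (adjusted p = 2.78e-09) and the spindle gene NUSAP1 1.82-fold higher (adjusted p = 9.19e-09). In all 5 genes each second-holiday library exceeded each first-holiday library, and replicate 3 was the highest of the first holiday.

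Among replication genes, TYMS, which makes thymidylate for DNA synthesis, had 115, 97.3 and 104 CPM in the second holiday, against 49.8, 49.1 and 59.8 CPM in the first (log2 0.99 ± 0.08 SE, adjusted p = 1.93e-10). The origin licensing gene CDC6 had 50.7, 49.2 and 49.5 CPM in the second holiday, against 29, 28.9 and 32.6 CPM in the first (log2 0.72 ± 0.07 SE, adjusted p = 3.3e-09). MCM3, a subunit of the replicative helicase, was 1.61-fold higher (adjusted p = 7.21e-09). RRM2, a subunit of ribonucleotide reductase, was 1.54-fold higher (adjusted p = 1.69e-08). The groups were apart for each of these 4 genes. CDC25A, a phosphatase that activates CDK2, had 13.2 ± 0.644 CPM in the second holiday and 6.88 ± 0.0499 CPM in the first (SD, n = 3 each; log2 0.94 ± 0.11 SE, adjusted p = 5.31e-08).

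Promoter letters were searched in every gene list, whatever its direction. Of the 27 G2/M genes, 21 had a promoter in the RefSeq table (250 bases before to 50 after the gene start, GRCh38.p14). The cell cycle homology region core TTTGAA was found on either strand in 15 of the 21 (71.4%), against 18.2% of 27305 genes with a promoter, and CCAAT in 19 (90.5%), against 39.7%. CCAAT was as frequent in 2 lists below that moved both ways. It was in 18 of 18 promoters of the unfolded protein response (100%) and 16 of 17 of cholesterol synthesis (94.1%). A link between the letters and the direction was not tested. Of 20 replication genes with a promoter, 9 (45%) held the E2F-type letters TTCCCGC, against 7.82% of all, and 9 (45%) held TTGGCGC, against 3.66%. The 250 bases before the start of MKI67 (chr10:128126424-128126673, minus strand) follow, 5′ to 3′ on the gene's strand, since this window holds both. Capitals mark TTTGAA or CCAAT on either strand (CCAAT reads ATTGG on the other). It holds 4 matches, of which the last pair share 1 base.
MKI67: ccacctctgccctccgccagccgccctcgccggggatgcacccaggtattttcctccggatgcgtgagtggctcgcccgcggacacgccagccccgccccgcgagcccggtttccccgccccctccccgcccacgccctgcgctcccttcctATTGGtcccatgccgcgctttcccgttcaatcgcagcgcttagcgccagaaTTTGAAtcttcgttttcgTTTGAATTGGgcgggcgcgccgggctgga
A match is a description of the letters and not a measured binding site. CDK1, the kinase that drives entry into mitosis, had 24.7, 22.1 and 28.3 CPM in the second holiday, against 12.5, 13.6 and 14.1 CPM in the first (log2 0.9 ± 0.10 SE, adjusted p = 3.7e-08).

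Genes that restrain the cycle went both ways. Of 21 CDK inhibitors and p53 targets, 9 were higher (42.9%) and 7 lower (33.3%), beside 14.6% and 14.4% of all genes. Their median was 0.05. CDKN1A, which encodes the CDK inhibitor p21, fell to 698, 738 and 716 CPM in the second holiday, against 983, 1029 and 873 CPM in the first, without overlap (log2 -0.42 ± 0.07 SE, adjusted p = 2.25e-05). GDF15, a stress cytokine gene, was 2.69-fold lower, at 346 ± 3.98 CPM in the second holiday and 930.1 ± 114 CPM in the first (SD, n = 3 each; adjusted p = 3.51e-10). SESN2, a stress-induced regulator of mTORC1 signalling, fell by 0.71 on the log2 scale (adjusted p = 1.22e-07). BTG2, an antiproliferative p53 target, was 2.24-fold higher (adjusted p = 4.03e-10) and the CDK4 and CDK6 inhibitor gene CDKN2C 1.78-fold higher (adjusted p = 2.58e-08).

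**Figure D2:**
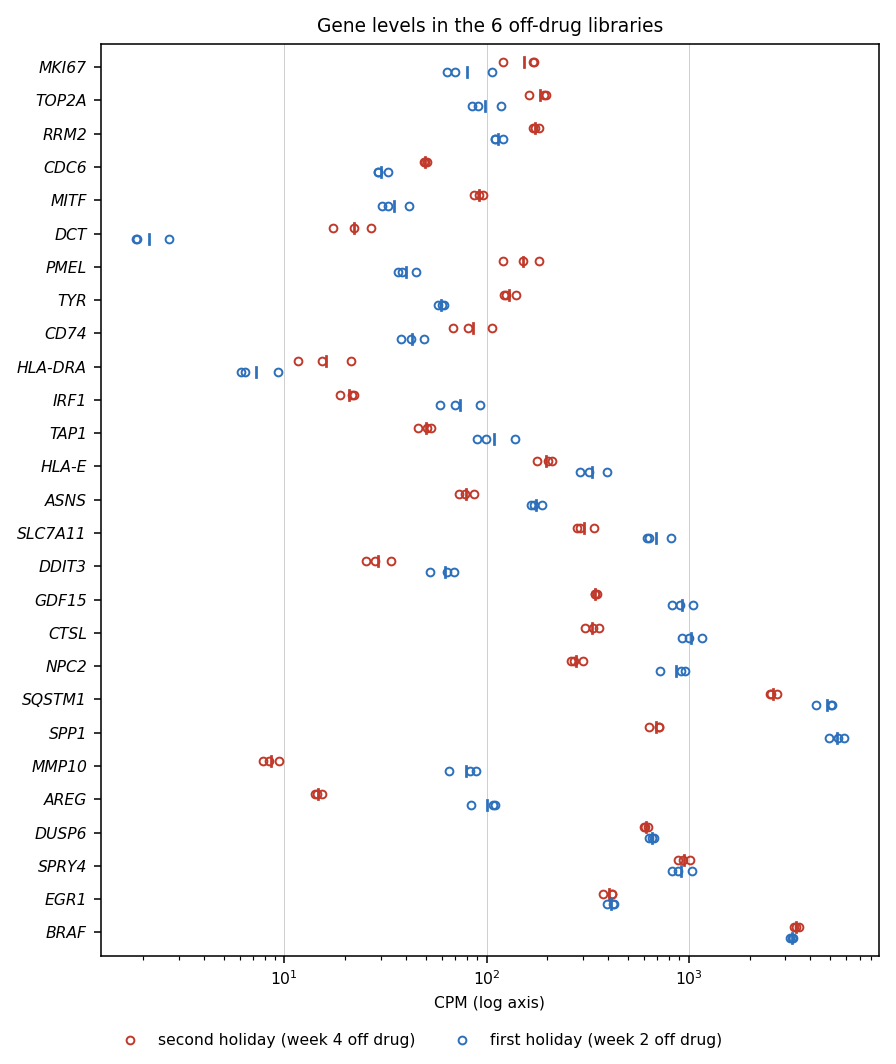
Levels of 27 genes in the 6 off-drug libraries, in CPM on a log axis. Open circles are libraries and vertical ticks the group means, red for the second holiday and blue for the first. MKI67, MITF and DCT lie to the right in the second holiday, and IRF1, CTSL and SPP1 to the left. The groups lie close together for BRAF, DUSP6, SPRY4 and EGR1.

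Pigment cell genes were higher in the second holiday, led by MITF and the enzymes and melanosome proteins it is known to switch on. Of 22 tested genes of melanocyte differentiation, 10 rose (45.5%) and 1 fell (4.55%), beside 14.6% and 14.4% of all genes. By at least 2-fold 8 rose, and the median was 0.40. MITF (ENSG00000187098, chromosome 3, 69739435 to 69968337) had 92.1, 86.8 and 95.6 CPM in the second holiday, against 32.5, 30.5 and 41.2 CPM in the first. Every second-holiday library stood far above every first-holiday library (log2 1.4 ± 0.12 SE, adjusted p = 1.83e-10). DCT, which encodes dopachrome tautomerase of melanin synthesis (ENSG00000080166, chromosome 13, 94436808 to 94479682), had 17.3, 26.9 and 22 CPM in the second holiday, against 1.84, 1.86 and 2.68 CPM in the first. It was 10.3-fold higher, the largest rise under the naming rule (a mean of at least 5 CPM and groups that did not overlap) (log2 3.36 ± 0.19 SE, adjusted p = 4.71e-14). TYR, which encodes tyrosinase, the first enzyme of melanin synthesis, had 122, 124 and 139 CPM in the second holiday, against 61.4, 57.8 and 60.2 CPM in the first (log2 1.1 ± 0.10 SE, adjusted p = 1.2e-09).

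PMEL, the melanosome fibril protein, had 120.2, 181 and 151 CPM in the second holiday, against 44.8, 38.2 and 36.5 CPM in the first (log2 1.92 ± 0.13 SE, adjusted p = 2.3e-12). MLANA, a melanosome protein, had 48.9, 60.8 and 61.3 CPM in the second holiday, against 17.4, 15.4 and 15.9 CPM in the first (log2 1.81 ± 0.17 SE, adjusted p = 7.81e-10). SLC24A5, a melanosomal ion exchanger gene, had 160.1, 124 and 158 CPM in the second holiday, against 50.8, 48.6 and 63.4 CPM in the first (log2 1.44 ± 0.13 SE, adjusted p = 2.72e-10). The groups were well apart for all 3 genes. CDK2 rose 1.92-fold (adjusted p = 2.17e-12). It overlaps PMEL on the opposite strand, as MLANA does KIAA2026 and SLC24A5 does MYEF2, and whether counting used strand is not given in the sources used here, so values of these genes may include reads of the partner. Lineage factors above MITF showed no called difference, with SOX10 at 387, 380.2 and 359 CPM in the second holiday, against 319, 351 and 357 CPM in the first (log2 0.13, adjusted p = 0.325) and PAX3 at -0.12 on the log2 scale (adjusted p = 0.214). BIRC7, an apoptosis inhibitor gene that is an MITF target, was the member that fell, by 0.92 on the log2 scale (adjusted p = 9.2e-06).

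The M-box letters TCATGTG, an E-box form bound by MITF, were found on either strand in 7 of 17 promoters of the list (41.2%), against 3.59% of all genes with a promoter. Of these 7 genes, 3 rose (TYR, DCT and SLC24A5) and none fell. In the whole list 10 of 22 rose (45.5%), a similar share, and a link between the letters and the direction was not tested. The 250 bases before the start of DCT (chr13:94479683-94479932, minus strand) and SLC24A5 (chr15:48120740-48120989, plus strand) are shown from the same table, with the M-box in capitals (CACATGA is its other strand).
DCT: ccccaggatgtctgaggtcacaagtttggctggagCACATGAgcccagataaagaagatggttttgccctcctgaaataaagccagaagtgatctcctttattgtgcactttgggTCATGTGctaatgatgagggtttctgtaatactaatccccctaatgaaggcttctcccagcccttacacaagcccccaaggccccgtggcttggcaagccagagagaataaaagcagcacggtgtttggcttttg
SLC24A5: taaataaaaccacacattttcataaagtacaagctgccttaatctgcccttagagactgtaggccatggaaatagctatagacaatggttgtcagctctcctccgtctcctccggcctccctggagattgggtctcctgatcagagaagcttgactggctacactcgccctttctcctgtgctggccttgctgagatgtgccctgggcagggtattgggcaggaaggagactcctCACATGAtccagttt
DCT holds 2 matches and SLC24A5 holds 1, and both genes rose in the second holiday.

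Beside the pigment genes, the largest rises by the naming rule were of mixed function. SEMA3G, a secreted semaphorin, had 38.2, 45.8 and 30.0 CPM in the second holiday, against 7.17, 7.19 and 8.39 CPM in the first (log2 2.32 ± 0.18 SE, adjusted p = 3.11e-11). ANGPTL2, a secreted angiopoietin-like protein, was 4.58-fold higher at 122 ± 33.5 CPM in the second holiday and 26.6 ± 1.54 CPM in the first (SD, n = 3 each). S100A1, a calcium-binding protein gene that is also among the melanocyte markers, had 439.6, 645 and 352 CPM in the second holiday, against 129.8, 123 and 104 CPM in the first (log2 2.01 ± 0.15 SE, adjusted p = 7.72e-12) and overlaps S100A13 on the opposite strand. For these 3 genes the second-holiday libraries spread widely. The naming rule asked for groups that do not overlap, so their separation is no further result. Others in the group of 12 were CTNND2, a catenin, with 4.7-fold, the vesicular monoamine transporter SLC18A1 with 4.59-fold, the lipase regulator G0S2 with 4.16-fold and lipoprotein lipase (LPL) with 3.88-fold. The protease gene PAPPA, which cleaves IGF binding proteins, was 3.88-fold higher and the calcium release channel gene RYR2 3.85-fold higher. ANKEF1 (2.06 on the log2 scale) and ESRG (2.13) complete the 12. Of abundant genes, PLAT, which encodes tissue plasminogen activator, had 1340.3, 1485 and 1275 CPM in the second holiday, against 519.6, 531 and 500.1 CPM in the first (log2 1.4 ± 0.07 SE, adjusted p = 2.86e-15). MAGEC2, a cancer-testis antigen gene, was 2.59-fold higher, at 181 ± 10.7 CPM in the second holiday and 70.0 ± 3.46 CPM in the first (SD, n = 3 each; adjusted p = 4.83e-13).

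Interferon signalling genes and the MHC class I pathway were lower in the second holiday. Of 32 tested interferon-stimulated genes, 13 fell (40.6%) and 3 rose (9.38%), with a median of -0.24. Of 17 genes of class I antigen presentation 10 fell (58.8%) and none rose, with a median of -0.27. Over all genes 14.4% fell and 14.6% rose. The fall was large for IRF1 and small or not called for the classical class I genes. Without replicate 1 of the second holiday, 6 class I members fell.

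IRF1, a transcription factor that interferon induces (ENSG00000125347, chromosome 5, 132481609 to 132490798), had 18.9, 21.6 and 22.1 CPM in the second holiday, against 92.7, 69.4 and 58.7 CPM in the first (log2 -1.82 ± 0.12 SE, adjusted p = 1.63e-12). The first-holiday libraries spread, with replicate 1 highest, and all lay far above the second-holiday libraries. Interferon-stimulated MX2 fell by 0.84 on the log2 scale (adjusted p = 5.84e-09) and STAT2, which carries type I interferon signals, by 0.59 (adjusted p = 6.35e-07). The members that rose were OAS1 (0.96, adjusted p = 3.1e-06), IFI44 (0.43, adjusted p = 0.0153) and OAS3 (0.33, adjusted p = 0.00494). The IFI44 call was lost without replicate 2 of the first holiday (adjusted p = 0.0569) or replicate 2 of the second (adjusted p = 0.116).

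TAP1, a subunit of the peptide transporter that feeds class I molecules (ENSG00000168394, chromosome 6, 32845209 to 32853978), had 45.8, 50.7 and 53.3 CPM in the second holiday, against 138, 99.1 and 89.3 CPM in the first (log2 -1.12 ± 0.13 SE, adjusted p = 3.88e-08). The other subunit, TAP2, had 31.5, 35.2 and 38.2 CPM in the second holiday, against 71.5, 56.7 and 61.2 CPM in the first (log2 -0.85 ± 0.08 SE, adjusted p = 1.33e-09). NLRC5, the transactivator of class I genes, was 2.01-fold lower, at 12.9 ± 1.15 CPM in the second holiday and 26 ± 4.46 CPM in the first (SD, n = 3 each; adjusted p = 8.14e-07). HLA-E, a class I molecule seen by natural killer cells, was 1.7-fold lower (adjusted p = 4.95e-08). Replicate 1 of the first holiday was the highest library in all 4 genes, and no second-holiday library reached a first-holiday one. The heavy chain genes HLA-B (-0.15, adjusted p = 0.435) and HLA-C (-0.24, adjusted p = 0.0775) showed no called difference on the log2 scale. HLA-C passed without replicate 3 of the first holiday (adjusted p = 0.0303) or replicate 2 of the second (adjusted p = 0.0284), and HLA-B stood at 0.06 without replicate 1 of the first. TAP1 overlaps PSMB9 and IRF1 overlaps C5orf56 on the opposite strand. HLA genes are close copies of each other, so the split of reads between them is uncertain.

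The interferon response element, searched as GAAA, any 2 bases and GAAA, was found on either strand in 17 of 23 promoters of interferon-stimulated genes (73.9%) and in 9 of 13 of class I genes (69.2%), against 4.38% of all. Of those 17 genes 5 fell and 2 rose, and of those 9 genes 6 fell. In the whole lists 13 of 32 (40.6%) and 10 of 17 (58.8%) fell, and a link between the letters and the direction was not tested. The gamma-activated site letters TTCNNNGAA were in 7 of the 23 (30.4%) and 2 of the 13 (15.4%), against 9.38% of all. The windows before IRF1 (chr5:132490774-132491023, minus strand), with TTCNNNGAA in capitals, and before B2M (chr15:44711267-44711516, plus strand), the light chain of class I molecules, with that element in capitals, are shown as members of each kind that fell.
IRF1: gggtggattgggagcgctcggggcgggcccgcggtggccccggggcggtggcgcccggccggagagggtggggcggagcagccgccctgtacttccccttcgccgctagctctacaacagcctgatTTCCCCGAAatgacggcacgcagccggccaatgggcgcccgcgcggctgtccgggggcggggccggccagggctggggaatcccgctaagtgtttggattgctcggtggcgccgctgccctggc
B2M: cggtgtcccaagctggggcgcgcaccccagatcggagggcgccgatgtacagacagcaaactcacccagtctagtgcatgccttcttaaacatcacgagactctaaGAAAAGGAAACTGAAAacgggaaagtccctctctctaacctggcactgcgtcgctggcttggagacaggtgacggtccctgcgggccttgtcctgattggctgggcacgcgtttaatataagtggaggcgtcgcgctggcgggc
IRF1 holds 1 match, and B2M holds 2 that overlap. B2M had 702, 911 and 771 CPM in the second holiday, against 1212, 923 and 924 CPM in the first (log2 -0.36 ± 0.11 SE, adjusted p = 0.0143), and its call was lost without replicate 1 of the first holiday or without replicate 1 or 3 of the second (adjusted p of 0.0581 to 0.174).

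MHC class II genes moved the opposite way to class I. Of 7 tested, 6 were higher (85.7%) and 1 lower (14.3%), beside 14.6% and 14.4% of all genes. The median was 0.99, at low levels. CD74, the invariant chain of class II molecules, had 68.2, 80.8 and 107 CPM in the second holiday, against 48.9, 42.3 and 37.7 CPM in the first (log2 0.99 ± 0.12 SE, adjusted p = 2.25e-07). HLA-DRA, the alpha chain of HLA-DR, had 11.6, 15.3 and 21.4 CPM in the second holiday, against 9.26, 6.4 and 6.13 CPM in the first (log2 1.16 ± 0.17 SE, adjusted p = 2.25e-06). The second-holiday libraries spread, with replicate 3 highest, but did not overlap the first-holiday ones. CIITA, the transactivator of class II genes, had 12.4, 11.4 and 15 CPM in the second holiday, against 9.05, 6.29 and 8.29 CPM in the first (log2 0.72, adjusted p = 0.000259). HLA-DPA1 (1.48, adjusted p = 2.8e-05) and HLA-DPB1 (1.64, adjusted p = 2.51e-05) overlap each other on opposite strands. HLA-DMB, which helps load peptide, was the member that fell (-0.63, adjusted p = 0.00649), a call lost without replicate 2 of the second holiday (adjusted p = 0.0691). Of 9 leukocyte markers 3 were tested and 2 were higher with class II. LAPTM5, a lysosomal membrane protein of blood cells, had 20.7, 24.8 and 16.8 CPM in the second holiday, against 13.6, 12.7 and 12.4 CPM in the first (log2 0.69 ± 0.11 SE, adjusted p = 1.99e-05). LYZ, the secreted lysozyme of myeloid cells, had 8.38, 11.3 and 8.31 CPM in the second holiday, against 4.48, 4.65 and 5.01 CPM in the first (log2 0.98 ± 0.18 SE, adjusted p = 7.78e-05). Neither gene's groups overlapped. CD68, the other tested marker, was not called and went the other way. It had 28 counts over the 3 second-holiday libraries and 48 over the 3 first-holiday libraries. The pan-leukocyte marker PTPRC had 19 counts over the 3 second-holiday libraries and 6 over the 3 first-holiday libraries, and TYROBP had 0 in all 6. ITGAM, not tested, had 6 counts in the second holiday and 10 in the first. The part of these markers in the class II result was not tested.

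Lysosomal genes and targets of the amino acid stress factor ATF4 were lower in the second holiday. Of 26 lysosome genes 19 fell (73.1%) and 1 rose (2 without replicate 3 of the second holiday), with a median of -0.35. Of 21 ATF4 targets 15 fell (71.4%) and 1 rose, with a median of -0.66. Over all genes 14.4% fell and 14.6% rose. CTSL, which encodes the protease cathepsin L (ENSG00000135047, chromosome 9, 87725519 to 87731393), had 306, 359 and 335 CPM in the second holiday, against 1163, 1006 and 923 CPM in the first. It was 3.09-fold lower (log2 -1.63 ± 0.10 SE, adjusted p = 8.62e-14). NPC2, a cholesterol carrier of the lysosome, had 260.3, 299 and 271 CPM in the second holiday, against 957, 917 and 723 CPM in the first (log2 -1.64 ± 0.12 SE, adjusted p = 5.36e-12) and overlaps ISCA2 on the opposite strand. SQSTM1, the autophagy receptor p62, which overlaps MGAT4B on the opposite strand, had 2534, 2739.5 and 2551 CPM in the second holiday, against 5043, 5109 and 4272 CPM in the first (log2 -0.88 ± 0.08 SE, adjusted p = 4.97e-10). Cathepsin B (CTSB) was 1.61-fold lower (adjusted p = 1.43e-09). The groups were apart in all 4 genes, and replicate 3 was the lowest of the first holiday. The CLEAR letters TCACGTGA, bound by MITF family factors including TFEB, were in 4 of 17 lysosomal promoters (23.5%; CTSA, LAMP1, MCOLN1 and ATP6V0D1), against 1.18% of all, and all 4 genes fell. In the whole list 19 of 26 fell (73.1%), and a link between the letters and the direction was not tested. The window before LAMP1 (chr13:113296989-113297238, plus strand), a membrane protein of the lysosome, is shown with these letters in capitals.
LAMP1: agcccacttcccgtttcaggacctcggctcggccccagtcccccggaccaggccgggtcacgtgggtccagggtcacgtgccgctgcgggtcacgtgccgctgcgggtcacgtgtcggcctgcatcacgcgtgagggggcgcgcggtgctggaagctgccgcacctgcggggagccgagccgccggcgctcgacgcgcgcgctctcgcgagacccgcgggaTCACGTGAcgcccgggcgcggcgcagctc
LAMP1 had 348, 346 and 368 CPM in the second holiday, against 451, 442 and 408 CPM in the first (log2 -0.29 ± 0.06 SE, adjusted p = 0.000259).

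ASNS, which makes asparagine (ENSG00000070669, chromosome 7, 97852118 to 97872542), had 73.5, 78.4 and 86.6 CPM in the second holiday, against 188, 172 and 166 CPM in the first (log2 -1.14 ± 0.09 SE, adjusted p = 2.67e-11). DDIT3, the stress factor CHOP, had 25.2, 33.6 and 28.1 CPM in the second holiday, against 69, 64.1 and 52.8 CPM in the first (log2 -1.09 ± 0.12 SE, adjusted p = 1.88e-08). PSAT1, of serine synthesis, was 1.73-fold lower at 85.4 ± 4.39 CPM in the second holiday and 147 ± 4.42 CPM in the first (SD, n = 3 each). ATF3, an ATF4-induced factor that is also an immediate early gene, was 1.93-fold lower (adjusted p = 9.99e-10). None of these 4 genes had overlapping groups. VLDLR, a lipoprotein receptor gene, was the member that rose (0.29, adjusted p = 0.0114). Of 18 genes of the unfolded protein response, which shares stress sensors with ATF4, 5 fell (27.8%) and 2 rose (11.1%). Their median was -0.08, and over all genes 14.4% fell and 14.6% rose. Without replicate 1 of the second holiday 3 fell, and 1 rose without replicate 1 or 3 of the first or 1 or 2 of the second. DNAJB9, an endoplasmic reticulum chaperone, fell by 0.88 on the log2 scale (adjusted p = 1.06e-09) and HERPUD1, of protein degradation at the endoplasmic reticulum, by 0.60 (adjusted p = 2.81e-07).

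**Figure D3:**
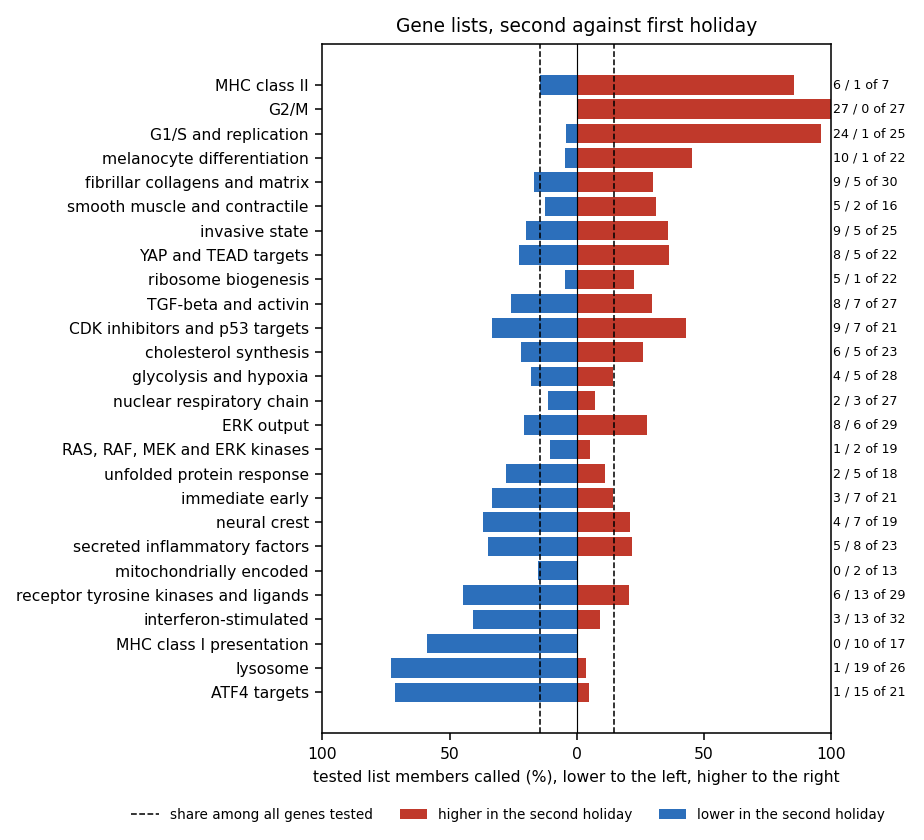
Shares of tested members called higher (red, to the right) or lower (blue, to the left) in the second holiday, for each gene list, sorted by median log2 change. Dashed lines give the shares among all genes tested (14.6% higher, 14.4% lower), and the numbers at the right are members higher, lower and tested. G2/M stands at 27 of 27 higher, and lysosome and ATF4 targets at 19 of 26 and 15 of 21 lower.

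Genes of several secreted proteins and peptides were lower in the second holiday. They were named for the size of their change and not tested as a group. SPP1, which encodes the secreted phosphoprotein osteopontin (ENSG00000118785, chromosome 4, 87975650 to 87983426), had 637, 712 and 709 CPM in the second holiday, against 5850.0, 5493 and 4916 CPM in the first. It was 7.9-fold lower (log2 -2.98 ± 0.10 SE, adjusted p = 1.21e-19). A2M, a secreted protease inhibitor, had 272, 242 and 269 CPM in the second holiday, against 1474, 1424 and 1302 CPM in the first (log2 -2.42 ± 0.08 SE, adjusted p = 7.07e-20). CYTL1, a secreted cytokine-like protein, had 47.9, 49.5 and 45.7 CPM in the second holiday, against 305, 315 and 237 CPM in the first (log2 -2.58 ± 0.13 SE, adjusted p = 1.89e-15). In these 3 genes the libraries of a group lay close together and far from the other group. Chromogranin A (CHGA), a protein of neuroendocrine secretory granules, had 4.05, 6.01 and 3.47 CPM in the second holiday, against 52.3, 54.3 and 46.4 CPM in the first (log2 -3.49 ± 0.19 SE, adjusted p = 2.12e-14). Galanin (GAL), a neuropeptide, was 6.99-fold lower at 7.93 ± 0.534 CPM in the second holiday and 55.5 ± 8.57 CPM in the first (SD, n = 3 each).

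By fold the largest fall under the naming rule was that of the mast cell tryptase gene TPSAB1 (ENSG00000172236, chromosome 16, 1240696 to 1242554), with 0.443, 0.372 and 0.3 CPM in the second holiday, against 14.6, 19.1 and 11.2 CPM in the first. It was 39.9-fold lower (log2 -5.32 ± 0.40 SE, adjusted p = 4.22e-11), and it has a near-identical copy, TPSB2, so its reads may be split. SPANXN1, a cancer-testis gene, was 20.7-fold lower and GALNT13, a glycosyltransferase, 15.5-fold lower, the last at 2.36 ± 0.359 CPM in the second holiday and 36.7 ± 1.27 CPM in the first (SD, n = 3 each). CYP4F3, a cytochrome P450 with close copies, was 10.4-fold lower, the calcitonin receptor CALCR 9.48-fold lower and the natriuretic peptide clearance receptor NPR3 6.93-fold lower. TRIM54, a muscle ring finger protein, was 7.09-fold lower and the teneurin TENM1 6.99-fold lower.

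Of 23 tested secreted inflammatory factors, 5 were higher (21.7%) and 8 lower (34.8%), beside 14.6% and 14.4% of all genes. The matrix protease gene MMP10 had 8.35, 9.42 and 7.84 CPM in the second holiday, against 88.4, 82.4 and 65.4 CPM in the first (log2 -3.2 ± 0.19 SE, adjusted p = 9.21e-14) and overlaps WTAPP1. AREG, an EGF receptor ligand, had 14.5, 15.4 and 14.2 CPM in the second holiday, against 110.1, 107 and 84 CPM in the first (log2 -2.77 ± 0.15 SE, adjusted p = 7.55e-15). IL1B, the cytokine interleukin-1 beta, went the other way, with 51.1, 81.4 and 73.5 CPM in the second holiday, against 23, 19.2 and 18.5 CPM in the first (log2 1.77 ± 0.15 SE, adjusted p = 1.14e-10). Groups did not overlap in any of the 3 genes, which for MMP10 was a condition of the naming rule. Among 29 receptor tyrosine kinases and ligands, 13 fell (44.8%) and 6 rose (20.7%), with a median of -0.23. The ligand genes NRG1 (-0.94, adjusted p = 1.49e-08), KITLG (-0.87, adjusted p = 3.18e-08) and PDGFB (-2.44, adjusted p = 2.79e-08) fell on the log2 scale, as AREG did. The receptor gene EGFR was 3.08-fold higher, with 19.1, 14.2 and 22.2 CPM in the second holiday, against 5.78, 6.15 and 6.06 CPM in the first.

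The other state and stroma lists moved both ways. Of 25 genes of the invasive, poorly differentiated state 9 were higher (36%) and 5 lower (20%), beside 14.6% and 14.4% of all genes. Its receptor kinase AXL had 74.5, 81.5 and 65.8 CPM in the second holiday, against 68.4, 72.9 and 72.5 CPM in the first, with overlapping groups (log2 0.05, adjusted p = 0.71). SLIT2, a guidance ligand of that list, was 5-fold lower, at 11.5 ± 1.71 CPM in the second holiday and 57.6 ± 6.28 CPM in the first (SD, n = 3 each). Of 19 neural crest genes 4 were higher (21.1%) and 7 lower (36.8%). MSX1, a homeobox factor, was 3.12-fold lower and the neurotrophin receptor NGFR 1.44-fold lower (adjusted p = 7.84e-07). Matrix genes (30 tested) gave 9 higher (30%) and 5 lower (16.7%, near the share of all genes). The collagen COL8A1 was 3.41-fold lower and COL5A2 2.39-fold higher. TGF-beta and activin genes (27) gave 8 (29.6%) and 7 (25.9%). ID3, a target of BMP signals, was 2.62-fold higher and LTBP2, a matrix protein, 2.07-fold lower. YAP and TEAD targets (22) gave 8 (36.4%) and 5 (22.7%). Of them 4 were higher without replicate 1 of the first holiday and 5 without its replicate 2 or without replicate 1 of the second. Contractile genes (16) gave 5 (31.2%) and 2 (12.5%, below the share of all genes). Of them 2 were higher without replicate 1 of the first holiday, and 3 without its replicate 2 or without replicate 1 of the second. With any 1 of the 6 libraries left out, 1 was lower.

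Metabolic lists held called members in both directions, several at shares near or below the 14.6% higher and 14.4% lower of all genes. Cholesterol synthesis genes (23 tested) gave 6 higher (26.1%) and 5 lower (21.7%), but 3 higher without replicate 1 of the first holiday and 3 lower without replicate 1 of the second, with SQLE, a rate-limiting oxygenase of the pathway, lower (-0.45, adjusted p = 1.42e-05). Glycolysis and hypoxia genes (28) gave 4 (14.3%) and 5 (17.9%), near the background, with EGLN3, an oxygen-sensing hydroxylase, 2.68-fold lower and lactate dehydrogenase A (LDHA) 1.32-fold higher. Without replicate 3 of the second holiday 2 of them were higher, and without replicate 1 or 2 of the first or 1 or 3 of the second 3 were lower. Nuclear respiratory chain genes (27) gave 2 (7.41%) and 3 (11.1%), below the background, and ribosome biogenesis genes (22) gave 5 (22.7%) and 1 (4.55%). Of the 13 mitochondrially encoded genes, MT-ND1 (-0.46, adjusted p = 0.00159) and MT-ND2 (-0.41, adjusted p = 0.0105), subunits of complex I, fell. The MT-ND2 call was lost without replicate 1 of the second holiday (adjusted p = 0.0762), and the mitochondrial share of all counts gave no call, as above.

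Defining markers of other cell types were at or near 0, and markers of the melanocyte lineage were not. EPCAM and CDH1 of epithelium, CDH5 of endothelium and TYROBP of leukocytes had 0 counts in all 6 libraries. The 10 melanocyte markers summed to 1380 to 1703 CPM in the second holiday and 747 to 757 CPM in the first, with 7 of the 10 higher and SOX10 and PAX3 present in all 6. Leukocyte markers summed to 25.7 to 36.8 CPM in the second holiday and 18.2 to 18.9 CPM in the first, carried by LAPTM5 and LYZ, which both rose, and 7 of the 9 were under 1 CPM. Fibroblast markers summed to 58.5 to 60.8 CPM in the second holiday and 61.6 to 63.7 CPM in the first, endothelial ones to 99.9 to 125 and 92.9 to 108 CPM, and epithelial ones to 178 to 204 and 198 to 217 CPM. Neural and glial markers summed to 1599 to 1894 CPM in the second holiday and 1479 to 1563 CPM in the first, and NEFL, a neurofilament gene, was among the higher ones. The part of these sums in the results was not tested.

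The second against first difference off drug was then set beside the difference between the second and first week on drug (week 3 minus week 1 of the same schedule) and beside the difference between weeks 4 and 2 of continuous drug. Cell cycle genes rose between the on-drug weeks too, and fell under continuous drug. More pigment genes fell than rose between the on-drug weeks, and more interferon and class I genes rose than fell in both other differences. None of the 3 differences shares a library with another. On drug, 3392 genes (16.6%) were higher and 2979 (14.5%) lower at week 3 than at week 1, 31.1% in all. Under continuous drug, 3397 (16.6%) were higher and 3524 (17.2%) lower at week 4 than at week 2, 33.8% in all.

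Of the 2992 genes higher in the second holiday, 1348 were also higher at week 3 than at week 1 on drug, 45.1% of the first set and 39.7% of the second. Another 254 (8.49%) were lower there. Of the 2952 genes lower in the second holiday, 1176 were also lower in the on-drug difference (39.8% and 39.5%) and 370 (12.5%) higher. With the continuous arm the overlap was less one-sided, at 819 genes higher in both (27.4% and 24.1%) and 789 (26.4%) opposite, and 851 lower in both (28.8% and 24.1%) and 522 (17.7%) opposite.

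**Figure D4:**
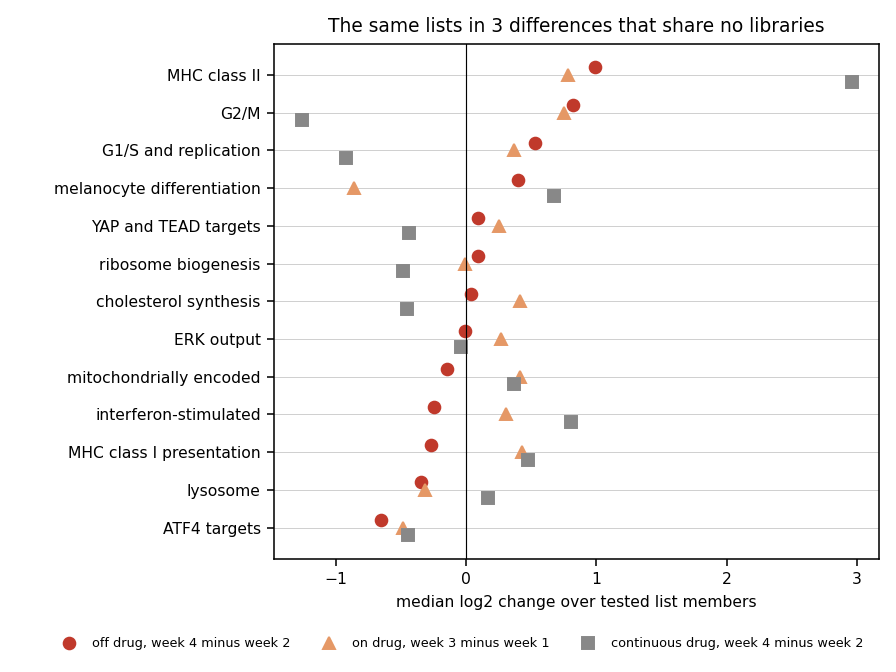
Median log2 change over the tested members of 13 lists in the second against first holiday (red circles), on drug at week 3 against week 1 (orange triangles) and under continuous drug at week 4 against week 2 (grey squares). G2/M genes sit at 0.82, 0.75 and -1.26 in that order, and class I genes at -0.27, 0.43 and 0.48.

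The differences between these differences were tested directly. Minus the on-drug difference, 1557 genes (7.6%) were higher and 1947 (9.5%) lower, 17.1% in all. None of the 27 G2/M genes passed in either direction and 5 of 25 replication genes were higher. On drug 26 of the 27 and 19 of the 25 were themselves higher at week 3. MKI67 had 217 CPM at week 3 and 122 CPM at week 1 on drug, and its holiday change exceeded the on-drug one by a log2 value of 0.11 ± 0.29 (SE, adjusted p = 0.869). ATF4 targets fell in both settings, 15 of 21 off drug and 17 of 21 on drug, with ASNS at 225 CPM at week 3 and 403 CPM at week 1 (difference of changes -0.3, adjusted p = 0.0917). MHC class II genes rose in both settings, 6 of 7 off drug and 5 of 7 on drug. In the test of the difference none of the 7 was higher and 1 was lower.

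Melanocyte genes differed from the on-drug pattern, with 15 of 22 higher in the holiday change than in the on-drug change and 2 lower. Over all genes this test gave 7.6% higher and 9.5% lower, so the 2 lower are near that share. On drug 14 of the 22 fell and 4 rose between weeks 1 and 3. Over all genes 14.5% fell and 16.6% rose there, so the 4 that rose are near that share. TYR had 38.9 CPM at week 3 and 129.7 CPM at week 1 on drug, and its holiday change exceeded that difference by 2.85 on the log2 scale (adjusted p = 1.04e-14). For PMEL the excess was 5.18 (adjusted p = 1.07e-17). Class I genes gave 15 of 17 lower in the holiday change than in the on-drug change and none higher, and interferon-stimulated genes 13 of 32 lower and 2 higher. The 2 higher interferon-stimulated genes are near the share of all genes. IRF1 had 37.9 CPM at week 3 and 33.4 CPM at week 1 on drug (log2 0.18, adjusted p = 0.272 on drug, difference of changes -2, adjusted p = 2.96e-10). CTSL had 146 CPM at week 3 and 166 CPM at week 1, also not called (log2 -0.18, adjusted p = 0.158, difference of changes -1.45 (adjusted p = 1.56e-09)). The lysosome list itself fell on drug too, with 16 of 26 lower and 2 higher. Its median log2 change was -0.32 on drug and -0.35 off drug. In the test of the difference the list gave 6 higher and 6 lower of 26.

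Minus the continuous-drug difference, 2976 genes (14.5%) were higher and 2783 (13.6%) lower, 28.1% in all. All 27 G2/M genes and 24 of 25 replication genes were higher in this test, and under continuous drug all 27 and all 25 fell. MKI67 had 79.4 CPM at week 4 and 229.6 CPM at week 2 of continuous drug (difference of changes 2.47, adjusted p = 3.73e-07). In this arm week 2 holds a library, replicate 3, that stood apart from its group, and without it and a like library on drug at week 3 the test gave 3552 genes higher and 2915 lower. Interferon-stimulated genes gave 22 of 32 lower in the holiday change and 1 higher, class I genes 13 of 17 lower, lysosome genes 18 of 26 lower and class II genes 6 of 7 lower. Class II rose under continuous drug as well, in 7 of 7, and by more: CD74 reached 96.5 CPM at week 4, against 12.4 CPM at week 2 (difference of changes -1.97, adjusted p = 1.34e-09). For melanocyte genes the test gave 5 higher and 5 lower of 22, and 13 of the 22 rose under continuous drug.

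Over the whole schedule, several genes peaked in the first holiday and stood nearer to their other levels in the second. IRF1 averaged 5.85 CPM untreated, 33.4 at week 1, 73.6 in the first holiday, 37.9 at week 3 and 20.9 in the second holiday. CTSL averaged 114 CPM untreated, 166 at week 1, 1031 in the first holiday, 146 at week 3 and 333 in the second holiday. In the same sequence of groups SPP1 averaged 295, 994, 5419.8, 534 and 686 CPM. MITF was 349 CPM untreated, 11.4 at week 1, 34.7 in the first holiday, 16.3 at week 3 and 91.5 in the second holiday, so that both holidays lay below untreated cells. S100A1 differed from these, at 8.22, 6.31, 119, 68.4 and 479 CPM over the same 5 groups. These levels are descriptions, and untreated cells matched in time to weeks 2 and 4 were not analysed here.

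**Figure D5:**
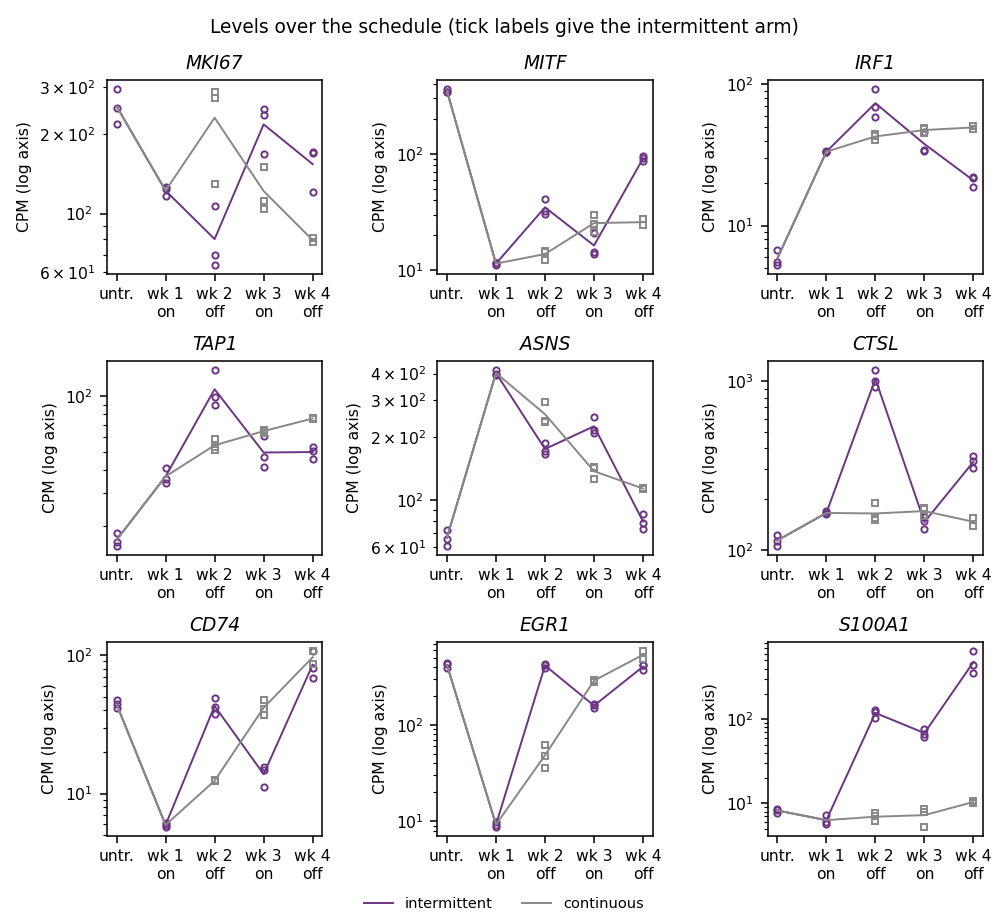
Levels of 9 genes over the schedule, in CPM on a log axis, from untreated cells to week 4. Points are libraries and lines join group means, purple circles for the intermittent arm and grey squares for the continuous arm, which share the untreated and week 1 groups. IRF1 and CTSL have their highest point in the first holiday, while S100A1 and CD74 of the intermittent arm are highest in the second.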

How the data were processed

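RNA-seq of 29 libraries in 10 groups was analysed, of which 6 form the comparison of the second with the first drug holiday. The authors deposited whole-number read counts per Ensembl gene. The submitters' processing notes name Trimmomatic 0.32, HISAT2 2.0.3, SAMtools 0.1.18, HTSeq 0.6.1 and GRCh38; strand setting and annotation release are not given in the sources used here. The headers of the intermittent week 3 columns read off drug, against on drug in the labels, which were used. Of 60675 genes, 20494 passed edgeR's filterByExpr. CPM are counts scaled to TMM library sizes. edgeR 4.0.16 (R 4.3.3) fitted its quasi-likelihood model with 1 term per group to all 29 libraries, and genes were called at a Benjamini-Hochberg adjusted p under 0.05. An SE is the log2 change divided by the root of F. Differences from the other arms were tested in the same model. The code was tested on simulated data.

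Named genes are 12 fixed ones, the 12 largest rises and falls that reach a mean of 5 CPM and have groups that do not overlap, up to 4 called members of each list by adjusted p, the 6 largest differences each way from each other arm, and the 5 largest changes each way at a mean of at least 100 CPM. Names outside this rule were chosen after their values were seen. Members, lists and tests were chosen with earlier results of these data known. Positions are from GENCODE 29 and promoters from RefSeq. Alternatives were DESeq2 1.42.0, RLE scaling, no count filter, the 2 groups alone, a replicate block, a 2-fold minimum and leaving out each library. Some genes of the lists are not reported here by name.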

Additional observations from a re-analysis of the deposited data

Results flagged for a closer look

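A gene is listed here where the change between the holidays differed from the change in another arm by a test of the difference itself (adjusted p under 0.05, edgeR quasi-likelihood test). Covered are the 12 genes fixed for naming and, in each test, the 6 largest differences each way. A value is the log2 change of the second over the first holiday minus the log2 change of the other arm. A large value can therefore come mainly from the other arm. All adjusted p were under 0.05, and no explanation was tested.

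Against week 4 minus week 2 of continuous drug, 6 genes had the largest differences on the negative side. SCUBE1 differed by -7.28, MGP by -6.22, complement C3 by -5.86, DCLK1 by -5.85, BTBD11 by -4.77 and FOSB by -4.71. SCUBE1 was near the floor off drug, at 0.272 CPM in the second holiday and 0.447 CPM in the first. Under continuous drug it averaged 24.1 CPM at week 4 and 0.25 CPM at week 2. For C3 the means were 8.57 CPM in the second holiday and 27.3 CPM in the first, and 16.9 CPM at week 4 and 0.926 CPM at week 2 of continuous drug. On the positive side were CDC25A with 2.66, KRT81 with 2.66, CD36 with 2.63, KCNQ5 with 2.56 and IL11 with 2.50. CD36 was also near the floor off drug, at 0.747 CPM in the second holiday and 0.509 CPM in the first. Under continuous drug it averaged 32.8 CPM at week 4 and 139 CPM at week 2. GREM1 also passed (adjusted p = 0.00773), with 0 counts in the first holiday, so its fitted size depends on the prior count. Of the 12 fixed genes, 10 passed. EGR1 gave -3.50, DUSP6 -1.01, CDKN1A -0.58, TYR 0.43, MITF 0.48, CCND1 0.63, ETV4 0.72, FOSL1 1.62, AXL 2.07 and MKI67 2.47. The MITF call was lost in 12 of 17 alternatives (adjusted p up to 0.207, without replicate 2 of week 4 of continuous drug) and the TYR call in 8 of 17 (adjusted p up to 0.105, without replicate 1 or 2 of that group). For EGR1 the continuous arm averaged 535 CPM at week 4 and 48.4 CPM at week 2, while the second holiday averaged 404 CPM and the first 414 CPM.

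Against week 3 minus week 1 on drug, the pigment genes PMEL with 5.18 and MLANA with 4.79 stood on the positive side, together with HTR2B with 6.38, PTPRZ1 with 3.39, APOE with 3.25 and SOX8 with 3.11. PMEL averaged 9.38 CPM at week 3 and 90.0 CPM at week 1 on drug. HTR2B was low off drug, at 2.34 CPM in the second holiday and 0.51 CPM in the first. On drug it averaged 8.25 CPM at week 3 and 149 CPM at week 1. KLHL4 gave -5.34. The epithelial cytokine and barrier genes IL36B (adjusted p = 4e-15), IL36RN (adjusted p = 5.11e-10), LCE1F (adjusted p = 2.25e-07), LCN2 (adjusted p = 1.89e-06) and LCN1 (adjusted p = 0.000623) passed on the negative side, but had at most 3 counts at week 1, so no size is given. LCN1 averaged 39.1 CPM in the second holiday and 23.8 CPM in the first, so its holiday change was itself upward. Among the fixed genes, EGR1 gave -4.14, AXL -1.25, ETV4 -0.91, DUSP6 -0.87, CCND1 -0.37, MITF 0.88 and TYR 2.85.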

How the results depend on the processing

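No called change of a gene named in the text turned its sign in an alternative that was run, and 5 genes without a call (SPRY4, EGR1, AXL, HLA-B, and MKI67 against the on-drug change) did so in 8 runs in all. Changes of at least 2-fold were fewer, with 619 genes higher and 806 lower. The 10 class I genes that fell were 6 to 12 when each library was left out in turn, with 6 in the absence of replicate 1 of the second holiday. Other counts of list members moved by over 1.5 times as well. Leaving out each library in turn gave 1 to 2 lysosome, 3 to 7 ERK output, 4 to 8 YAP and TEAD target, 2 to 6 contractile, 3 to 6 cholesterol synthesis, 1 to 3 unfolded protein response, 2 to 3 glycolysis and hypoxia and 0 to 2 RAS to ERK kinase genes higher, and 0 to 1 replication, 0 to 1 class II, 1 contractile, 3 to 6 cholesterol synthesis, 3 to 5 unfolded protein response, 3 to 6 glycolysis and hypoxia, 1 to 2 mitochondrially encoded and 1 to 2 RAS to ERK kinase genes lower. With no count filter no ATF4 target rose, 1 unfolded protein response gene rose and 2 glycolysis genes rose. With the 2 groups fitted alone 5 ERK output genes, 1 unfolded protein response gene and 2 glycolysis genes rose. RLE scaling gave 1 unfolded protein response gene higher and DESeq2 gave 2 lysosome genes higher. Without the libraries that lay apart from their groups, 2 lysosome, 4 unfolded protein response and 9 ribosome biogenesis genes rose. No other count of called genes or list members that was run moved by that much, and the causes were not tested. Of the 5944 calls, 96.4% remained in DESeq2, 97.3% with RLE scaling, 86.4% with no count filter, 88.5% with the 2 groups fitted alone and 79.6% to 85% when each library was left out. Without 2 libraries that lay apart from their groups, an alternative chosen after seeing the data, 99.5% remained. For 175 changes of genes named in the text, 2353 runs of an alternative kept the call or its absence in 2310 cases, lost it in 38 and gained it in 5. HLA-C passed in DESeq2 (adjusted p = 0.0472) and with no count filter (adjusted p = 0.046), and the SPRY1 call was lost with the 2 groups fitted alone (adjusted p = 0.0822). The median log2 change of all genes was 0.0182 in the main fit and at most 0.0429 in an alternative, without replicate 2 of the first holiday.

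Deviations from the group mean of libraries with the same replicate number correlated at -0.155, 0.205 and 0.244 between the holidays. Libraries of different numbers gave -0.342 to 0.222. These few values cannot tell whether libraries of the same number share a culture or batch. With the replicate number as a block, 2943 genes were higher and 2911 lower, against continuous drug 2871 and 2680, and against the on-drug weeks 1520 and 1908. In the block, 27 G2/M, 24 replication, 10 melanocyte and 6 class II genes were higher, and 15 ATF4, 19 lysosome, 10 class I and 13 interferon genes lower. With 3 libraries a group and a common coefficient of variation of 0.0942, small changes of low genes were not detectable.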
